A study of Mus musculus with 9 samples.

Results

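Fatty acid synthesis and desaturation were followed through 10 genes chosen by name for their roles in lipogenesis, out of the 22851 genes of the count table. They are Srebf1 and Thrsp, which regulate or serve the pathway, Acly, Acaca, Acacb and Fasn, which make palmitate and its precursors, and Elovl6, Scd1, Scd2 and Scd4, which lengthen and desaturate fatty acids. All 10 had a row in the table and passed the filter on low counts in every comparison.

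RNA was sequenced from the hearts of male C57BL/6 mice, as the labels name the strain, in 3 groups with 3 libraries each. Control check (CK) mice were injected with citrate buffer, diabetic cardiomyopathy (DCM) mice received streptozotocin, a toxin of the insulin-producing beta cells, and were kept for 12 weeks, and spermine (SPM) mice received the polyamine spermine before streptozotocin and during the following 12 weeks. No group received spermine without streptozotocin. Sources differ on whether a library holds the RNA of a single mouse or of a pool of several hearts, so it is unknown whether the spread between libraries is that between single mice.

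Insulin stimulates lipogenesis in liver and fat mainly through SREBP-1c, the product of Srebf1, and streptozotocin removes most insulin. Acly cleaves citrate to cytosolic acetyl-CoA, acetyl-CoA carboxylase turns acetyl-CoA into malonyl-CoA, and fatty acid synthase uses malonyl-CoA to build palmitate. The heart makes little fat of its own, and there the carboxylase isozyme of Acacb sits at the mitochondrial surface, where its malonyl-CoA inhibits the import of fatty acids for oxidation. Stearoyl-CoA desaturases, encoded in the mouse by the neighbouring genes Scd1 to Scd4 on chromosome 19, put the first double bond into saturated fatty acids, and Scd4 is known as the form of the heart.

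Total counts lay between 29901300 and 39718680 per library. Cardiomyocyte markers summed to 36884 to 49505 CPM, counts scaled to the normalized library total, with Myh6, Myl3 and Myl2 the most abundant. The sums were 36884, 39174 and 41222 in SPM and at least 42941 in every CK and DCM library. Without Myh6 the SPM sums of 22920, 21767 and 20969 overlapped CK, where replicate 2 had 21740. They still lay below all DCM sums, which were 24132, 25731 and 23104. The part of this difference in the SPM values was not tested. An extraction note in the labels speaks of retinas, whereas the tissue label gives heart. The mitochondrial share of counts was at least 21% in every SPM library and at most 18.9% in any other. SPM replicate 2 stood apart from the other libraries. For 67.8% of genes its level lay between those of SPM replicates 1 and 3, against 15% to 40.5% for the other 8 libraries within their groups. Its median squared deviation from the best mixture of its 2 companions was 0.89 times the counting noise, against 2.58 to 7.79 elsewhere. Of 2656 genes at 0 in SPM replicates 1 and 3, it had a count for 30. Values without it are given below for many results that passed the limits with it and not without it.

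In this heart tissue the 10 genes differed widely in level. Deposited FPKM values, which are per gene length, ranked Acacb first in CK at 76.3 ± 2.48 (SD, n = 3), followed by Thrsp at 26.0 ± 2.53, Scd4 at 19.6 ± 1.34, Acly at 18.0 ± 1.16 and Srebf1 at 13.7 ± 0.263. Scd1 followed at 9.22 ± 2.83 FPKM, Scd2 at 6.02 ± 0.148, Fasn at 5.48 ± 0.411, Acaca at 2.47 ± 0.194 and Elovl6 at 0.186 ± 0.0489. Scd4 and Acly were the only neighbours in this order whose CK libraries overlapped. In DCM the same order held by the means, but Thrsp and Scd4 overlapped, as did Scd1 and Scd2. In SPM no neighbours overlapped, and Scd4 at 30.7 ± 2.25 FPKM stood above Thrsp at 24.3 ± 1.98, while Scd2 at 8.05 ± 0.252 stood above Scd1 at 6.49 ± 0.672.

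**Figure D1:**
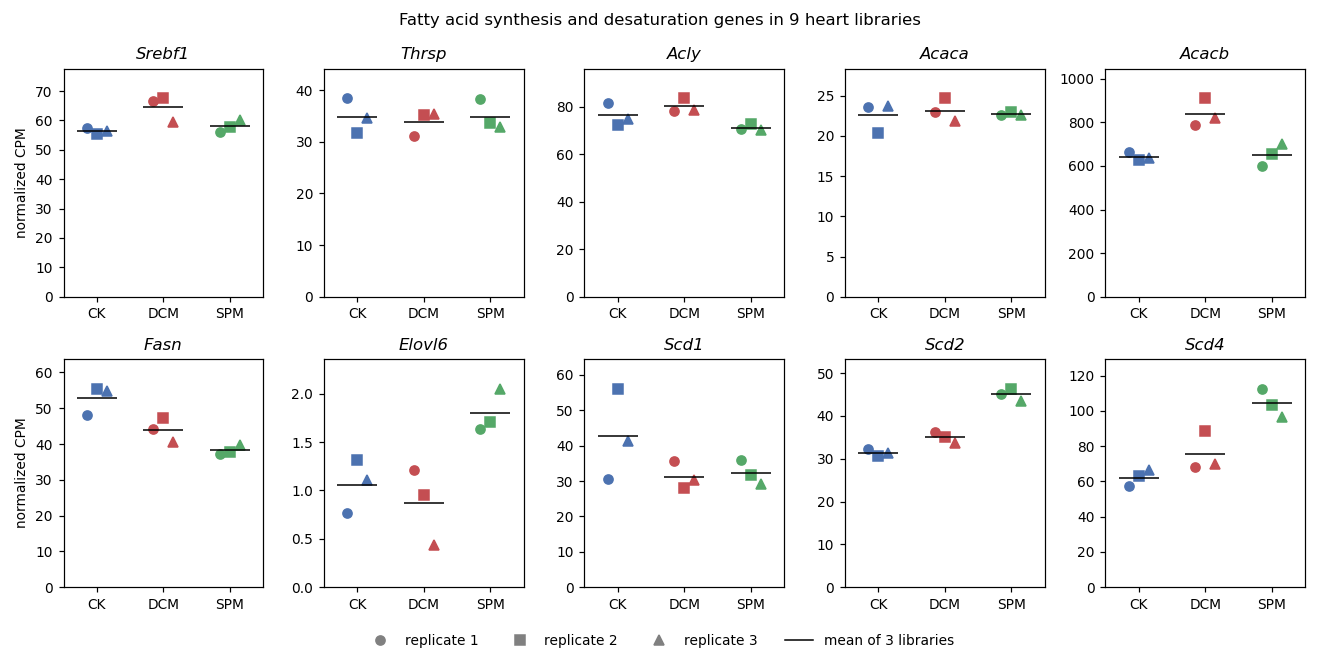
Normalized CPM of the 10 genes in each library, one panel per gene with its own axis from 0, points by replicate number and lines at the means of 3 libraries. Acacb was higher in the 3 DCM libraries than in all others, and Scd2 and Scd4 were higher in the 3 SPM libraries than in all others.

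A gene was called when edgeR's quasi-likelihood test gave a Benjamini-Hochberg adjusted p under 0.05, taken over all genes tested, together with a fold change of at least 1.5, the limits of the study. In DCM compared to CK 0 of the 10 genes were called, against 4.34% of the 14402 genes tested, and 5 of the 10 had an unadjusted p under 0.05, as did 24.6% of all genes. In SPM compared to DCM 0 were called, against 3.59% of 14493 genes, and 6 had an unadjusted p under 0.05, as did 34.6% of all genes. DESeq2 and limma on FPKM values also called 0 in both comparisons. In SPM compared to CK 1 was called, Scd4, against 9.21% of 14574 genes.

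Most differences in these genes were smaller than 1.5-fold. With the adjusted p alone, 1 of the 10 genes passed in DCM compared to CK (10.4% of all genes), 3 in SPM compared to DCM (16.6% of all genes) and 3 in SPM compared to CK (27.4% of all genes). The libraries of the 2 groups did not overlap for 5, 6 and 4 of the 10 genes in that order, where 29.3%, 39.2% and 46.3% of all genes did so. The median log2 fold changes of the 10 genes were 0.055, 0.0057 and 0.012, and those of all genes were -0.0025, 0.0057 and 0.0022. The comparisons share libraries in pairs, so their values are not independent of each other.

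**Figure D2:**
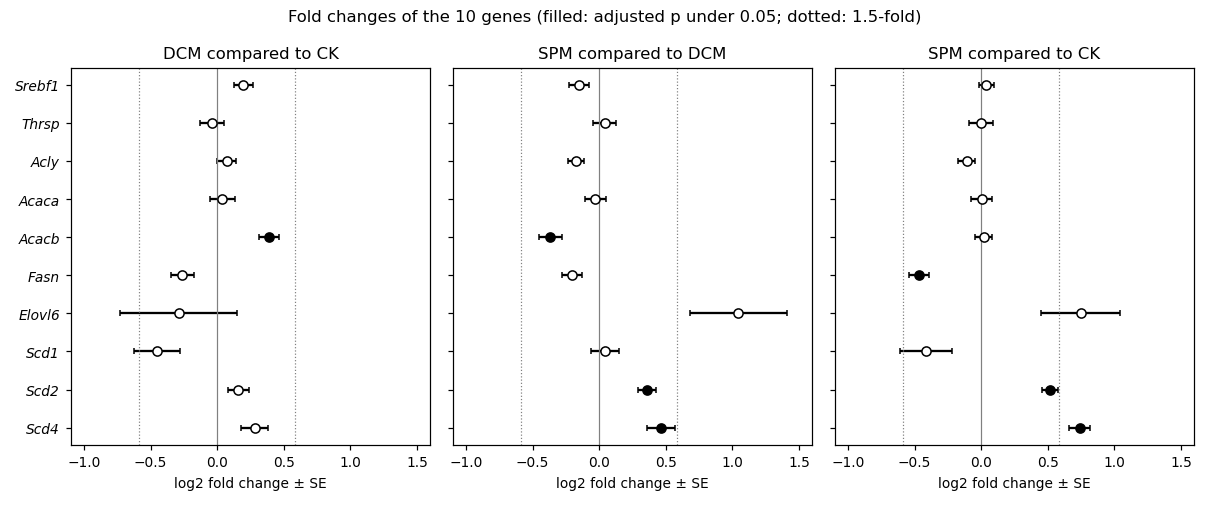
Log2 fold changes of the 10 genes with their standard errors in the 3 comparisons, filled where the adjusted p was under 0.05 and with dotted lines at 1.5-fold. Acacb was the filled gene of DCM compared to CK at 0.39, and Scd4 lay beyond the dotted line with a filled point in SPM compared to CK at 0.74.

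Neither of the genes placed above the enzymes passed the test. Srebf1, which encodes the SREBP-1 transcription factors, was at 57.3, 55.3 and 56.3 normalized CPM in CK, 66.5, 67.5 and 59.6 in DCM, and 56.2, 57.8 and 60.3 in SPM. All 3 DCM libraries lay above CK, and DCM replicate 3 overlapped SPM. The log2 fold change in DCM compared to CK was 0.20 (SE 0.074, adjusted p = 0.12), and that in SPM compared to DCM was -0.15 (SE 0.072, adjusted p = 0.163). That in SPM compared to CK was 0.039 (SE 0.058, adjusted p = 0.648), and it ranged from -0.056 to 0.21 over all runs. These are transcript levels, and the cleavage that activates the protein was not measured. Srebf1 shares 109 exon bases, 1.93% of its own, with Rai1 on the opposite strand. Thrsp, an insulin- and thyroid-responsive nuclear protein of lipogenic tissues, was at 38.4, 31.6 and 34.7 CPM in CK, 31.1, 35.2 and 35.4 in DCM, and 38.3, 33.6 and 32.8 in SPM. The groups overlapped throughout, with adjusted p between 0.766 and 0.978.

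Acly and Acaca, which lead from citrate to the malonyl-CoA used for synthesis, also did not pass the test. Acly was at 81.6, 72.3 and 75.0 CPM in CK, 78.2, 83.5 and 78.7 in DCM, and 70.5, 72.5 and 70.3 in SPM. Its SPM libraries all lay below DCM, with a log2 fold change of -0.17 (SE 0.063, adjusted p = 0.0821). Acaca, the cytosolic carboxylase, stayed between 20.3 and 24.7 CPM in the 9 libraries, with log2 fold changes of 0.040, -0.029 and 0.0052.

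Acacb, by contrast, was higher in DCM than in both other groups. It was at 662.7, 628.8 and 634.3 CPM in CK, 789.7, 910.2 and 821.8 in DCM, and 601.5, 654.6 and 700.7 in SPM. The DCM libraries did not overlap those of CK or SPM, while CK and SPM overlapped each other. Acacb rose 1.31-fold in DCM compared to CK (log2 0.39, SE 0.077, adjusted p = 0.00712). It was 1.29-fold lower in SPM compared to DCM (log2 -0.37, SE 0.085, adjusted p = 0.0215), and SPM compared to CK differed by 0.018 on the log2 scale (SE 0.066, adjusted p = 0.86). Over all runs the value in SPM compared to CK ranged from -0.079 to 0.16. The rise in DCM passed the adjusted p in every alternative run. The fall in SPM compared to DCM kept its size but did not pass the adjusted p without SPM replicate 2 (log2 -0.37, adjusted p = 0.103). It also did not pass without DCM replicate 2 (-0.31, adjusted p = 0.0731) or after a correction for GC content (-0.23, adjusted p = 0.13).

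The ratio of the carboxylase isozymes was also highest in DCM. The log2 ratio of Acacb to Acaca FPKM was 4.93, 5.07 and 4.86 in the CK libraries, 5.22, 5.32 and 5.35 in DCM, and 4.85, 4.95 and 5.07 in SPM. DCM did not overlap the other groups. No stretch of 31 bases is shared by the annotated transcripts of the pair, so their reads can be told apart.

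**Figure D3:**
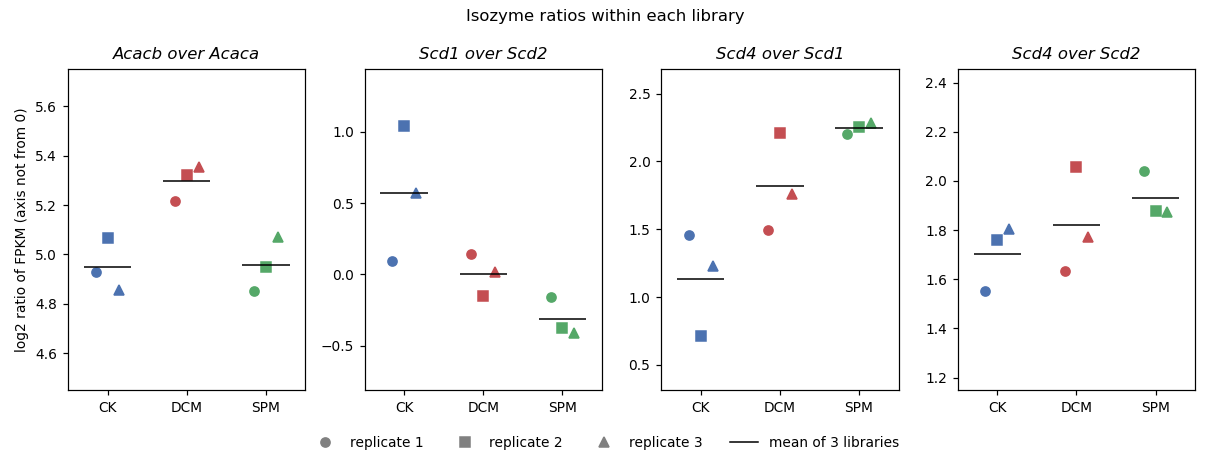
Log2 ratios of deposited FPKM between isozymes in each library, one panel per pair with its own axis that does not start at 0, and lines at the means of 3 libraries. The ratio of Acacb to Acaca was highest in DCM with a mean of 5.30, and that of Scd4 to Scd1 had means of 1.13 in CK, 1.82 in DCM and 2.24 in SPM.

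Mlycd, which encodes the decarboxylase that removes malonyl-CoA, is given beside Acacb as the opposing enzyme. It was at 268.7, 253.9 and 253.1 CPM in CK, 328.7, 351.9 and 316.5 in DCM, and 205.4, 228.7 and 243.5 in SPM. Its DCM libraries were above all others, and it rose in DCM compared to CK (log2 0.36, SE 0.072, adjusted p = 0.00719) and fell in SPM compared to DCM (log2 -0.56, SE 0.081, adjusted p = 0.00864). Mlycd passed the adjusted p in both of these comparisons under every alternative run. Genes for the making and the removal of malonyl-CoA were thus both at their highest in DCM.

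Fasn, which encodes fatty acid synthase, was lowest in SPM. It was at 48.2, 55.5 and 54.7 CPM in CK, 44.3, 47.3 and 40.6 in DCM, and 37.3, 37.9 and 39.7 in SPM. The 3 groups did not overlap, although SPM replicate 3 and DCM replicate 3 were close. Fasn was 1.38-fold lower in SPM compared to CK (log2 -0.47, SE 0.075, adjusted p = 0.00358), and this passed the adjusted p in every alternative run. The step in DCM compared to CK had a log2 fold change of -0.26 (SE 0.085, adjusted p = 0.0743) and that in SPM compared to DCM one of -0.20 (SE 0.076, adjusted p = 0.0903). After a correction for GC content these were -0.27, -0.040 and, for SPM compared to CK, -0.31 (adjusted p = 0.0347). The longest Fasn transcript has a GC content of 57.9% and that of Acacb 56.7%, against 49.5% for Scd2 and 49.0% for Scd4. The part of GC content in the SPM values was not tested beyond this correction.

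RefSeq start windows were searched for 4 motifs on both strands, since SREBP-1, USF, NF-Y and Sp1 are known to act at lipogenic promoters. Windows of 300 bases, 250 before and 50 after the start, were matched for 8 of the 10 genes, with none for Scd1 and Scd2, and gave 10 windows because Srebf1 has 3. The E-box CACGTG is in 7.15% of all 32851 windows, the SREBP site TCACNCCAC in 1.24%, the CCAAT box in 37.4% and the GC box GGGCGG in 35.7%. None of the 10 windows held the E-box or the SREBP site. CCAAT was found 3 times in Fasn, 2 times in Thrsp, and once each in Acacb, Acly and 2 of the Srebf1 windows. Acly held 4 GC boxes and the Srebf1 windows 3, 2 and 0. Scd4, Elovl6 and Acaca held none of the 4 motifs. The stretches of 250 bases before the start are shown for Fasn and Acacb, the enzymes of synthesis that passed the adjusted p, with motif matches in capitals (RefSeq, GRCm38.p6). A match of letters is not evidence of binding.
Fasn, chr11:120824548-120824797, minus strand: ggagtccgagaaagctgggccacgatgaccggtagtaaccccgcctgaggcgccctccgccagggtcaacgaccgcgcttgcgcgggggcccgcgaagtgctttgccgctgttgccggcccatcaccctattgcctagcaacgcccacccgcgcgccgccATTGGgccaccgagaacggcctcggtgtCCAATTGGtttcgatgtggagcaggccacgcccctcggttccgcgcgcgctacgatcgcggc
Acacb, chr5:114165268-114165517, plus strand: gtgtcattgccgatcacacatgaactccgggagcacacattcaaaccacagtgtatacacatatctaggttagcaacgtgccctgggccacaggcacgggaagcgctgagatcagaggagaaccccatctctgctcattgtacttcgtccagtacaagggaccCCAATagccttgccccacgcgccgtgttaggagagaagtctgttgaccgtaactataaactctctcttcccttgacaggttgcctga
The 3 Fasn matches lie 90, 62 and 59 bases before the start, the last 2 overlapping in one palindrome, and the Acacb match lies 87 bases before it. The windows of Acacb, Acaca, Scd4, Thrsp and Elovl6 belong to starts inside those genes as GENCODE M21 draws them, and not to their outermost starts. The same holds for 2 of the 3 Srebf1 windows. Total counts cannot say which start was used.

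Elovl6, which lengthens palmitate to stearate, was near the limit of detection. Its raw counts were 24, 47 and 34 in CK, 48, 28 and 15 in DCM, and 53, 53 and 63 in SPM, or 0.765, 1.31 and 1.10, then 1.21, 0.948 and 0.440, then 1.63, 1.71 and 2.05 normalized CPM. All SPM libraries lay above the other 6. The log2 fold change was 1.04 in SPM compared to DCM (SE 0.36, adjusted p = 0.0726) and 0.75 in SPM compared to CK (SE 0.30, adjusted p = 0.0909) and was not called.

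The desaturases did not move together. Scd4 was at 57.1, 63.0 and 66.4 CPM in CK, 68.3, 88.5 and 69.9 in DCM, and 112.6, 103.3 and 96.8 in SPM. The 3 groups did not overlap, and the lowest SPM library exceeded the highest DCM library. Scd4 was 1.67-fold higher in SPM compared to CK (log2 0.74, SE 0.081, adjusted p = 0.00107) and stayed called in every alternative run, with log2 fold changes between 0.64 and 0.79. In SPM compared to DCM it was 1.38-fold higher (log2 0.46, SE 0.10, adjusted p = 0.0201), with 0.47 (adjusted p = 0.0701) without SPM replicate 2, 0.59 (adjusted p = 0.0435) without DCM replicate 2 and 0.43 (adjusted p = 0.0521) after the GC correction. In DCM compared to CK the log2 fold change was 0.28 (SE 0.10, adjusted p = 0.105), and 0.15 without DCM replicate 2.

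Scd2, the widely expressed desaturase of brain and developing skin, was also highest in SPM. It was at 32.2, 30.7 and 31.4 CPM in CK, 36.3, 35.1 and 33.7 in DCM, and 45.1, 46.4 and 43.6 in SPM. Replicates were close and the 3 groups did not overlap. Scd2 was 1.43-fold higher in SPM compared to CK (log2 0.51, SE 0.06, adjusted p = 0.00119), which passed the adjusted p in every alternative run. It was 1.28-fold higher in SPM compared to DCM (log2 0.36, SE 0.067, adjusted p = 0.0128). That value was 0.34 (adjusted p = 0.083) without SPM replicate 2, 0.36 (adjusted p = 0.0543) without DCM replicate 2, and 0.35 (adjusted p = 0.0299) after the GC correction. In DCM compared to CK it was 0.16 (SE 0.077, adjusted p = 0.224).

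Scd1, the insulin-responsive desaturase of liver and fat, did not follow its neighbours on the chromosome. It was at 30.5, 56.1 and 41.4 CPM in CK, 35.5, 28.0 and 30.2 in DCM, and 35.9, 31.7 and 29.1 in SPM. CK spread over nearly the whole range of the 9 libraries, and CK replicate 1 lay inside DCM. The log2 fold change was -0.45 in DCM compared to CK (SE 0.17, adjusted p = 0.128) and -0.41 in SPM compared to CK (SE 0.19, adjusted p = 0.142). The first was -0.64 without CK replicate 1, which was called, and -0.20 without CK replicate 2. The second was -0.61 without CK replicate 1, also called, and -0.16 without CK replicate 2.

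Scd1 is among the genes that fat cells express most, and fat cell markers differed between libraries. The 9 adipocyte markers summed to 39.7, 166.7 and 66.8 CPM in CK, 74.6, 85.0 and 50.9 in DCM, and 97.7, 83.9 and 70.7 in SPM. The order of the CK libraries was the same for the markers and for Scd1, highest in replicate 2 and lowest in replicate 1. Cfd, Cidea and Cidec were the most abundant markers, and Lep and Ucp1 were at 0 in 5 and 4 of the libraries. The order was also the same among the SPM libraries. In DCM replicate 2 had the highest sum and the lowest Scd1. Cidea, which makes up much of the DCM sums at 34.4, 43.2 and 34.0 CPM, went against its list, since it rose 1.53-fold in DCM compared to CK while the other 6 tested markers had log2 fold changes between -1.49 and -0.14. Plin1 at 4.17, 2.54 and 1.14 CPM and Cidec at 5.96, 4.81 and 2.67 were highest in DCM replicate 1, as Scd1 was. The low Lep and Ucp1 were also highest there. Cfd at 24.9, 29.7 and 10.6 CPM went the other way and was highest in DCM replicate 2. So were Adipoq at 3.07, 3.08 and 1.41, Retn at 0.779, 1.25 and 0.586, and Adrb3 at 0.352, 0.406 and 0.322. Plin1, Adipoq, Retn, Adrb3 and the order within the groups were singled out after their values were seen. In bulk tissue fewer cells of a type and less RNA per cell cannot be told apart, and the part of fat cells in the Scd1 values was not tested. Fasn had the order of the marker sum among the CK libraries, at 48.2, 55.5 and 54.7 CPM, over a narrower range. It had that order in DCM too, at 44.3, 47.3 and 40.6, and the reverse order in SPM, at 37.3, 37.9 and 39.7.

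**Figure D4:**
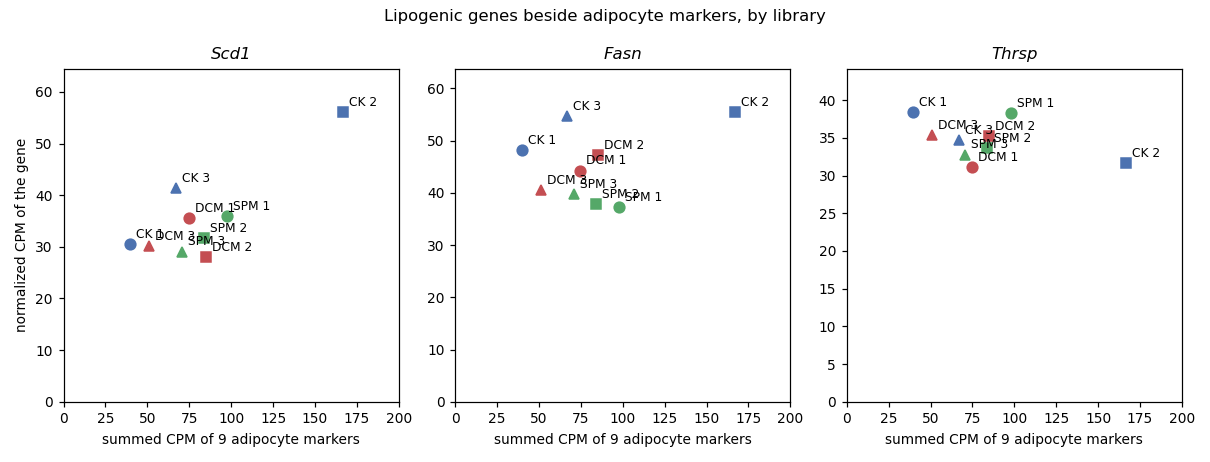
Normalized CPM of Scd1, Fasn and Thrsp in each library against the summed CPM of 9 adipocyte markers, colored by group, with both axes from 0. CK replicate 2 has the highest marker sum at 166.7 and the highest Scd1 at 56.1, whereas its Thrsp at 31.6 is among the lowest.

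Liver markers also differed, and liver is a lipogenic tissue. Their sum was 391.5, 200.8 and 44.1 CPM in SPM, 20.5, 88.7 and 25.1 in CK, and 35.5 to 43.5 in DCM, with Alb, Ahsg and Cyp2e1 the most abundant. Serpina1c and Hnf4a were at 0 in all DCM libraries and in SPM replicate 3, and Serpina1c also in CK replicates 1 and 3. Scd4, Scd2 and Elovl6 in SPM replicate 3, where the liver sum was near that of DCM, were at 96.8, 43.6 and 2.05 CPM, each above every DCM and CK library. Ahsg made up 29.5 of the 44.1 CPM in SPM replicate 3 and at least 26.1 CPM of each DCM sum, while Alb was at 0.293 CPM in SPM replicate 3 and 0.264 to 0.352 in DCM. The part of liver RNA in the SPM values was not tested.

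The paralogs leave some uncertainty in the Scd values. Between 2.20% and 8.12% of the 31-base stretches of the transcripts of one Scd gene occur in another, and how the authors' counting divided such reads is not given in the sources used here. Scd3, the fourth gene of the cluster, stayed between 0.0649 and 0.647 CPM. The log2 ratio of Scd4 to Scd1 FPKM was 1.46, 0.717 and 1.23 in CK, 1.49, 2.21 and 1.76 in DCM, and 2.20, 2.25 and 2.28 in SPM. CK lay below both other groups, while the DCM values reached into SPM. That of Scd1 to Scd2 was 0.0939, 1.04 and 0.573 in CK, 0.141, -0.154 and 0.0130 in DCM, and -0.158, -0.374 and -0.410 in SPM. Scd1 thus went from the higher to the lower of the pair by the group means.

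Other genes of the pathway were read from lists of 56 genes, of which 53 had a row. G6pdx, Acsf3 and Hsd17b8 had none. With both limits edgeR called 0 of 48 tested genes in DCM compared to CK, against 4.34% of all genes. It called 0 of 49 in SPM compared to DCM, against 3.59%. An unadjusted p under 0.05 was found for 13 and 18 of them, and for 24.6% and 34.6% of all genes. DESeq2 called 0 and 1, and limma on FPKM called 1 and 0. In SPM compared to CK 3 of 48 were called, against 9.21% of all genes. With the adjusted p alone 2 were higher and 3 lower in DCM compared to CK, 3 higher and 8 lower in SPM compared to DCM, and 4 higher and 12 lower in SPM compared to CK. The shares of all genes that passed were 10.4%, 16.6% and 27.4%. The median log2 fold changes of the pathway genes were 0.025, -0.096 and -0.13 in that order, against -0.0025, 0.0057 and 0.0022 for all genes. Without SPM replicate 2 the counts fell to 1 gene in SPM compared to DCM and 5 in SPM compared to CK. Of all genes 0.486% and 10.4% then passed. In SPM compared to DCM 4 pathway genes passed without DCM replicate 1, and 2 without DCM replicate 2 and also with the GC correction. The shares of all genes there were 5.04%, 1.29% and 3.07%.

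**Figure D5:**
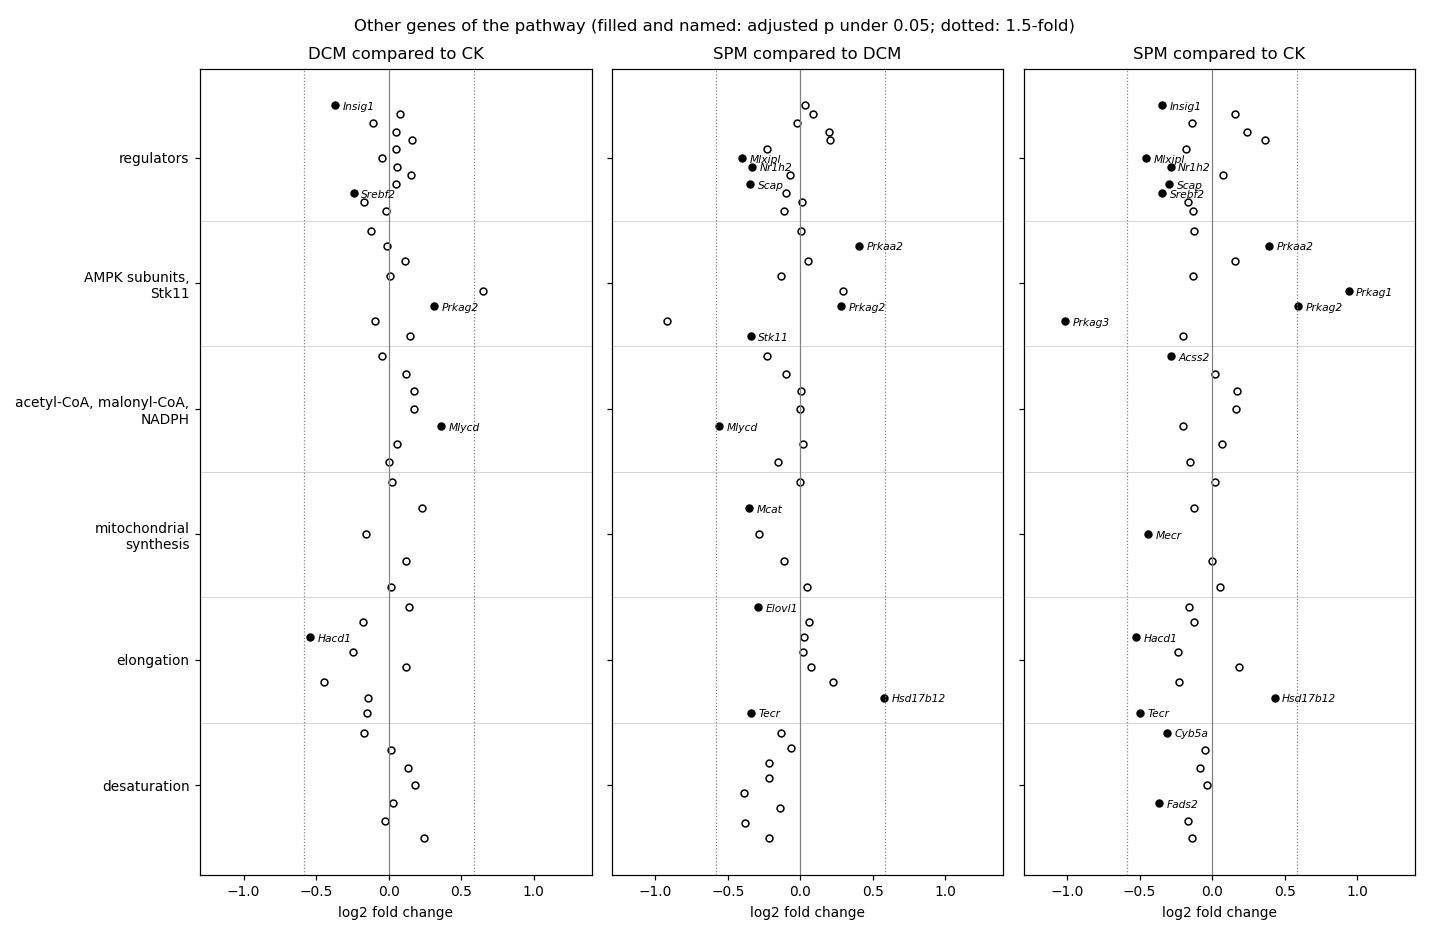
Log2 fold changes of the other pathway genes in the 3 comparisons, arranged by role, filled and named where the adjusted p was under 0.05 and so named by their values, with dotted lines at 1.5-fold. Mlycd is right of 0 in DCM compared to CK at 0.36 and left of 0 in SPM compared to DCM at -0.56.

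Of 13 regulators, 2 were lower in DCM compared to CK, 3 were lower in SPM compared to DCM and 5 were lower in SPM compared to CK by the adjusted p. Over all genes 10.4%, 16.6% and 27.4% passed in these comparisons. Without SPM replicate 2 edgeR left 0 of the 13 in either SPM comparison, with 3 and 5 at an unadjusted p under 0.05. Of all genes 0.486% and 10.4% then passed the adjusted p, and their share at the unadjusted limit was not counted. With the GC correction 0 of the 13 passed in SPM compared to DCM, with 2 at an unadjusted p under 0.05. In SPM compared to CK 1 was then higher and 1 lower by the adjusted p. The shares of all genes that passed with this correction were 3.07% and 21.2%. Srebf2, which encodes the SREBP of cholesterol synthesis, was at 68.6, 62.5 and 66.6 CPM in CK, 55.9, 56.5 and 54.6 in DCM, and 48.1, 52.3 and 56.0 in SPM. Both diabetic groups lay below CK, with log2 fold changes of -0.24 (SE 0.07, adjusted p = 0.0473) and -0.34 (SE 0.073, adjusted p = 0.0109). Insig1, a target of SREBP that holds SREBP in the endoplasmic reticulum, was lower in DCM compared to CK (log2 -0.37, SE 0.11, adjusted p = 0.0448) and in SPM compared to CK (-0.34, SE 0.10, adjusted p = 0.0367). In DCM compared to CK neither gene passed the adjusted p without CK replicate 2 or without DCM replicate 3, among others. In SPM compared to CK neither passed without SPM replicate 2. The log2 fold changes were then -0.34 (adjusted p = 0.0581) for Srebf2 and -0.34 (adjusted p = 0.125) for Insig1. With the GC correction Srebf2 was at -0.18 (adjusted p = 0.0911) in SPM compared to CK.

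Scap, the escort that carries SREBP to the Golgi, was lower in SPM. It was at 57.2, 51.7 and 49.8 CPM in CK, 51.6, 59.9 and 52.9 in DCM, and 39.1, 44.6 and 45.8 in SPM. The log2 fold change was -0.34 compared to DCM (SE 0.086, adjusted p = 0.027) and -0.30 compared to CK (SE 0.082, adjusted p = 0.0288). Mlxipl, which encodes the glucose-sensing factor ChREBP, was at 22.2, 22.8 and 24.2 CPM in CK, 22.0, 22.4 and 22.5 in DCM, and 14.4, 16.5 and 19.8 in SPM. It was lower compared to DCM (log2 -0.40, SE 0.11, adjusted p = 0.0361) and compared to CK (-0.45, SE 0.12, adjusted p = 0.021). Without SPM replicate 2 the adjusted p compared to DCM and to CK was 0.0965 and 0.089 for Scap and 0.144 and 0.087 for Mlxipl, and with the GC correction 0.239 and 0.236 for Scap and 0.181 and 0.0887 for Mlxipl. Nr1h3, the oxysterol receptor LXR-alpha, and Insig2 did not pass in any comparison in the main run, with log2 fold changes between -0.072 and 0.16. With the GC correction Nr1h3 passed as higher in SPM compared to CK (log2 0.22, adjusted p = 0.0497). Nr1h2, the LXR-beta gene and chosen after its values were seen, was lower in SPM compared to DCM (log2 -0.34, adjusted p = 0.0146) and compared to CK (-0.29, adjusted p = 0.0163), with adjusted p of 0.0868 and 0.089 without SPM replicate 2 and 0.212 and 0.301 with the GC correction.

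The AMP-activated kinase phosphorylates and inhibits both carboxylases, and genes of its regulatory gamma subunits were the 3 called in SPM compared to CK. Prkag2 was at 32.7, 32.2 and 31.8 CPM in CK, 38.9, 39.3 and 41.7 in DCM, and 44.96, 49.7 and 51.4 in SPM. The 3 groups did not overlap. Prkag2 rose in DCM compared to CK (log2 0.31, SE 0.075, adjusted p = 0.0196), in SPM compared to DCM (0.28, SE 0.074, adjusted p = 0.0303) and in SPM compared to CK (0.59, SE 0.069, adjusted p = 0.00124). The other 2 were low. Prkag1 was at 1.91 to 3.85 CPM in CK and 4.23 to 6.44 in SPM (log2 0.94, SE 0.28, adjusted p = 0.0395). Prkag3, the form of skeletal muscle, was at 1.73 to 2.82 CPM in CK and 0.831 to 1.497 in SPM (log2 -1.01, SE 0.31, adjusted p = 0.0406). With both limits the 3 calls became 0 without SPM replicate 2 and without CK replicate 3, and 1, Prkag2, without CK replicate 1 and without SPM replicate 1. With the GC correction Prkag3 was at -0.92 (adjusted p = 0.0647) and lost its call. The fold change of Prkag2 in the main run, 1.505, lay just above the limit of 1.5. By the adjusted p Prkag2 passed in SPM compared to CK under every alternative run. In SPM compared to DCM it did not pass with the GC correction or without DCM replicate 1, DCM replicate 2, SPM replicate 2 or SPM replicate 3. In DCM compared to CK it did not pass without CK replicate 2, CK replicate 3 or DCM replicate 3, or with limma on FPKM. Of all 8 tested genes of the kinase and its activator, 1 was higher in DCM compared to CK by the adjusted p. There were 2 higher and 1 lower in SPM compared to DCM, and 3 higher and 1 lower in SPM compared to CK. The shares of all genes were 10.4%, 16.6% and 27.4%. Without SPM replicate 2 Prkag2 in SPM compared to CK was the 1 of the 8 that still passed, where 10.4% of all genes did. Its value in SPM compared to DCM was then 0.27 (adjusted p = 0.152). Prkag1 was then at 0.98 (adjusted p = 0.0976) in SPM compared to CK.

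Of 7 tested genes of acetyl-CoA, malonyl-CoA and NADPH metabolism, Mlycd, which removes malonyl-CoA, was the 1 that passed in DCM compared to CK and in SPM compared to DCM. In SPM compared to CK 1 was lower, Acss2, an acetyl-CoA synthetase chosen after its values were seen (log2 -0.28, adjusted p = 0.0283, and 0.107 without SPM replicate 2). Slc25a1, the mitochondrial citrate carrier, had log2 fold changes of 0.0054, -0.15 and -0.15. Me1, the malic enzyme that yields NADPH, lay between 121.4 and 131.7 CPM in CK, between 133.5 and 151.7 in DCM and between 135.8 and 151.1 in SPM, with adjusted p of 0.164, 0.989 and 0.0845.

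Of all genes 10.4%, 16.6% and 27.4% passed the adjusted p in DCM compared to CK, SPM compared to DCM and SPM compared to CK. Of 8 tested elongation genes 1 passed in DCM compared to CK and 3 in each SPM comparison. The genes, chosen after their values were seen, were not all the same ones. Hsd17b12, the ketoacyl reductase of the cycle, was higher and Tecr, its enoyl reductase, lower in both SPM comparisons, Elovl1 was lower in SPM compared to DCM and Hacd1 in SPM compared to CK. Without SPM replicate 2 Hsd17b12, Tecr and Hacd1 still passed in SPM compared to CK, and in SPM compared to DCM the adjusted p was 0.052 for Hsd17b12, 0.104 for Tecr and 0.144 for Elovl1. With the GC correction Tecr and Elovl1 did not pass in SPM compared to DCM (adjusted p = 0.135 and 0.0695). Of 5 genes of mitochondrial fatty acid synthesis, Mcat was lower in SPM compared to DCM (adjusted p = 0.013, and 0.0689 without SPM replicate 2) and Mecr in SPM compared to CK (adjusted p = 0.00976, and 0.0398 without it), with 0.128 for Mcat and 0.0518 for Mecr after the GC correction. Of 7 other desaturation genes 2 were lower in SPM compared to CK, Cyb5a and Fads2, and neither passed without SPM replicate 2. Fads2, the delta-6 desaturase, was at 10.9, 11.1 and 10.7 CPM in CK, 13.2, 11.3 and 8.82 in DCM, and 9.15, 8.14 and 8.24 in SPM. It was lower in SPM compared to CK (log2 -0.36, SE 0.096, adjusted p = 0.0243), with -0.33 (adjusted p = 0.138) without SPM replicate 2 and -0.25 (adjusted p = 0.0846) with the GC correction. Fads1, the delta-5 desaturase, had log2 fold changes of 0.18, -0.21 and -0.035, with adjusted p of 0.177, 0.0782 and 0.758. Elovl5, their partner elongase, had -0.18, 0.057 and -0.13, with adjusted p of 0.242, 0.699 and 0.223. With the GC correction 1 elongation gene was higher and 4 were lower in SPM compared to CK by the adjusted p, with Elovl5 among those that passed. Of all genes 21.2% then passed. Hacd1, a dehydratase of the elongation cycle in muscle, was at 36.6, 37.3 and 36.9 CPM in CK, 25.5, 25.5 and 25.0 in DCM, and 26.2, 25.7 and 25.3 in SPM. It was lower in DCM compared to CK (log2 -0.54, SE 0.075, adjusted p = 0.000697) and in SPM compared to CK (-0.53, SE 0.06, adjusted p = 0.00113), under every alternative run for both.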

How the data were processed

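RNA was sequenced from 9 heart libraries, 3 each of CK, DCM and SPM, grouped by their labels. The authors deposited raw counts per gene and library, and FPKM values that equal those counts divided by the library total and 1 length per gene. Reads were filtered with fastp, and the submitters' processing notes list Bowtie 0.12.2 and the builds mm8 and mm9 with no role given. For the counting tool and its use of strand the sources used here give no name. Symbols of 22844 of the 22851 identifiers came from reference tables, with gene models of GENCODE M21.

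Counts of 6 libraries per comparison were filtered with filterByExpr, scaled by TMM and fitted in R 4.3.3 with edgeR 4.0.16 (glmQLFit and glmQLFTest), with Benjamini-Hochberg adjustment over all genes tested. Calls needed an adjusted p under 0.05 and a fold change of at least 1.5, as in the study. The SE is the log2 fold change divided by the square root of F. Normalized CPM values use TMM factors over all 9 libraries. The steps were tested on simulated data. Alternatives were DESeq2 1.42.0, limma 3.58.1 on log2 of FPKM plus 0.1, DESeq2 size factors, other filters, all 9 libraries in one fit, a GC offset (lowess span 0.3), a replicate block and each library left out. Counts with the adjusted p alone under these alternatives were added after seeing the data.

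The 10 genes, the pathway lists and the marker lists were chosen with earlier results of these data known. Named were all 10 genes, pathway genes called in any comparison, 12 pathway genes whatever their result, and of each marker list the 3 genes of highest mean CPM and those listed at 0. One of the marker lists is not reported here. With 3 against 3 libraries an exact permutation test cannot go below p = 0.1. Libraries may be technical replicates in part, and p-values then measure only the spread between them. Motif matches, overlaps and isozyme ratios are descriptions without a test.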

Additional observations from a re-analysis of the deposited data

How the results depend on the processing

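Of the results for the 10 genes, the call of Scd4 in SPM compared to CK with both limits was kept under every alternative run. With the adjusted p alone, Acacb in DCM compared to CK and Fasn, Scd2 and Scd4 in SPM compared to CK also passed under every run. Without the fold limit 1, 3 and 3 of the 10 genes and 5, 11 and 16 pathway genes passed in DCM compared to CK, SPM compared to DCM and SPM compared to CK. With the adjusted p alone, no low-count filter gave 4 of the 10 genes in DCM compared to CK, the GC correction gave 1 of them and 2 pathway genes in SPM compared to DCM, and limma on FPKM gave 8 pathway genes in DCM compared to CK and 26 in SPM compared to CK. With both limits, limma gave 1 pathway gene in DCM compared to CK, and DESeq2, no low-count filter, a minimum of 1 CPM in 3 libraries and the replicate block gave 1 each in SPM compared to DCM. The causes were not tested.

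Leaving out 1 library at a time gave 0 to 1, 0 to 1 and 1 to 2 of the 10 genes with both limits in the 3 comparisons, and 1 to 3, 0 to 3 and 3 to 4 with the adjusted p alone. The 0 in SPM compared to DCM came without SPM replicate 2, where 72 of all genes passed against 2410 with it, and 194 passed without DCM replicate 2. Pathway genes ranged over 0, 0 to 5 and 0 to 4 with both limits, and over 2 to 5, 1 to 15 and 5 to 18 with the adjusted p alone. Replicate numbers were not treated as a pairing, since residuals of same-numbered libraries correlated between -0.123 and 0.175 and those of other numbers between -0.214 and 0.176. With the replicate block 1, 3 and 3 of the 10 genes passed the adjusted p, as without it.

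Signs turned in values that were not called. With limma on FPKM, Acly was at -0.018 and Acaca at -0.048 in DCM compared to CK, and Srebf1 at -0.056, Acaca at -0.084 and Acacb at -0.079 in SPM compared to CK. With the GC correction, Srebf1 was at 0.017 and Scd1 at -0.050 in SPM compared to DCM, and Thrsp at 0.080 in SPM compared to CK. Thrsp in that comparison was at 0.0018 with the minimum of 1 CPM and 0.00063 in one fit of 9 libraries. Over libraries left out, Thrsp ranged from -0.11 to 0.035, -0.036 to 0.078 and -0.074 to 0.063 in the 3 comparisons, and Acaca from -0.031 to 0.088, -0.081 to 0.018 and -0.068 to 0.039. Elovl6 ranged from -0.61 to 0.030 in DCM compared to CK, Scd1 from -0.047 to 0.14 in SPM compared to DCM, and Acacb from -0.038 to 0.075 in SPM compared to CK. Elovl6 had at most 63 counts in a library.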
